A study of Mus musculus with 10 samples.

Results

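The 5 arrays examined here each carry the epididymal fat of 1 obese mouse. They are the 5 of 10 arrays in the series whose titles name the high-fat diet, and they are called arrays 1 to 5 after the replicate numbers in those titles. The mice were male C57BL/6J animals, 8 weeks old when the diet began, and ate a diet with 60% fat for 8 weeks. The strain carries no engineered allele in the labels, and no agent other than the diet is named. The other 5 arrays, from mice on chow, were not used, so nothing below says what the diet changed. Everything below concerns how 5 mice with the same labels differed from one another. The replicate numbers have no order, and the weights of these mice were not analysed here.

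Epididymal white fat is the visceral pad attached to the epididymis of the male mouse. Its adipocytes store triglyceride, and as the pad enlarges in obesity macrophages gather around dying adipocytes, where some take up lipid and express the receptor Trem2. Fibroblast-like stromal cells deposit collagen between the adipocytes, mast cells sit along vessels and connective tissue, and the adipocytes' mitochondria burn fatty acids and amino acids and feed fat synthesis. RNA from a piece of the pad mixes all of these cells. In such bulk tissue fewer cells of a type and less RNA per cell cannot be told apart.

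Each array gave 1 intensity for each of 45101 probe sets. Levels are given as log2 intensities after quantile normalization over the 5 arrays, and a difference of 1 is a 2-fold difference. Each of 18193 genes was represented by its brightest probe set, and the 9096 genes with a mean log2 level above the median of 6.20 (an intensity of 73.5) are called bright. The range of a gene is its highest minus its lowest array. With 1 group and 5 arrays there is no test between groups and no correlation between genes. Counts of list members that were highest or lowest in an array are set beside the same share over the bright genes. Counts of members above their own mean are given without such a share, which was not computed. The deposited array medians lay between 17.9 and 25.0. For the actin control, the signal at the 5' end divided by that at the 3' end, a sign of RNA integrity, was 0.557 and 0.591 in arrays 1 and 2 and 0.638 to 0.643 in arrays 3, 4 and 5, and that of Gapdh lay between 1.02 and 1.08 in the 5 arrays. The 5' probe set for 18S ribosomal RNA read 986 and 857 in arrays 1 and 2 and 2516 to 3452 in the other 3 arrays. The part of these array properties in the patterns below was not tested.

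The markers of the labelled tissue were bright. Of 27 listed adipocyte genes 22 were named on the array and all 22 were bright, with 11 in the top 1% of probe sets and 20 in the top 5%, where 1.26% and 7.62% of all genes stood. The brightest named probe sets were those of Lgals1 (galectin 1, a secreted lectin), Gsn (gelsolin, which severs actin), Fabp4 (the fatty acid carrier of adipocytes), Car3 (a carbonic anhydrase abundant in fat), Sparc (a matrix glycoprotein) and Dbi (an acyl-CoA binding protein). Rps29 (a ribosomal protein), Tmsb4x (thymosin beta 4), Lpl (lipoprotein lipase) and Cd36 (the fatty acid translocase) completed the first 10. Lgals1 held rank 1 in every array but array 4, where Fabp4 held rank 1 and Lgals1 rank 2. Adipoq, the adiponectin gene, was the 27th brightest probe set. These are ranks of signal, and since probe sets differ in how brightly they hybridise, they are not ranks of transcript number.

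Macrophage and matrix genes stood among the brightest as well. Of 24 general macrophage genes 6 were in the top 1% of probe sets, led by Lgals3 (galectin 3) at rank 43, Lyz2 (lysozyme) at rank 94 and Ctss (cathepsin S) at rank 100, and 17 were in the top 5%. Among 15 lipid-associated macrophage genes 7 were in the top 1%, although Cd36, Fabp5 and Plin2 of that list are also made by adipocytes. The collagen Col3a1 held rank 42 and Col1a2 rank 194. No mast cell gene was in the top 5%, and Cpa3, the mast cell carboxypeptidase, held rank 13713.

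Most bright genes differed little among the 5 mice. The median range was 0.40, the 90th percentile 0.81 and the 99th 1.47, and 445 of 9096 bright genes (4.89%) had a range of 1 or more. The spread was smaller among brighter genes. The median range was 0.21 for genes in the top 1% of probe sets and 0.47 for bright genes below the top 20%, and a range of 1 or more was reached by 1.31% and 7.70% of them. The widest 10 were all genes of antibody-secreting cells or of liver except Sptlc3, a serine palmitoyltransferase subunit that read 4.34 in array 1 and 6.97 to 7.95 in the other arrays.

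Array 1 held the lowest level of 242 of the 445 wide genes, and array 1, 3 or 5 the highest level of most of them. The highest level was in array 1 for 120 of them, in array 3 for 111, in array 5 for 107, in array 4 for 66 and in array 2 for 41. The commonest pairings were high in array 5 and low in array 1 (91 genes), high in array 3 and low in array 1 (88), and the converse, high in array 1 with the lowest level in array 3 (51) or array 5 (51). Over all bright genes the lowest array was array 1 for 24.6% and the highest was array 1 for 25.9%. Arrays 3 and 5 were the most alike, with only 16 bright genes 2-fold apart, whereas 271 (2.98%) were 2-fold apart between arrays 1 and 5. The first principal component of the bright genes held 55.5% of the variance and placed arrays 3 and 5 at 0.49 and 0.52, arrays 4 and 2 at -0.13 and -0.24, and array 1 at -0.65. Without array 1 the number of wide genes dropped to 154.

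**Figure D1:**
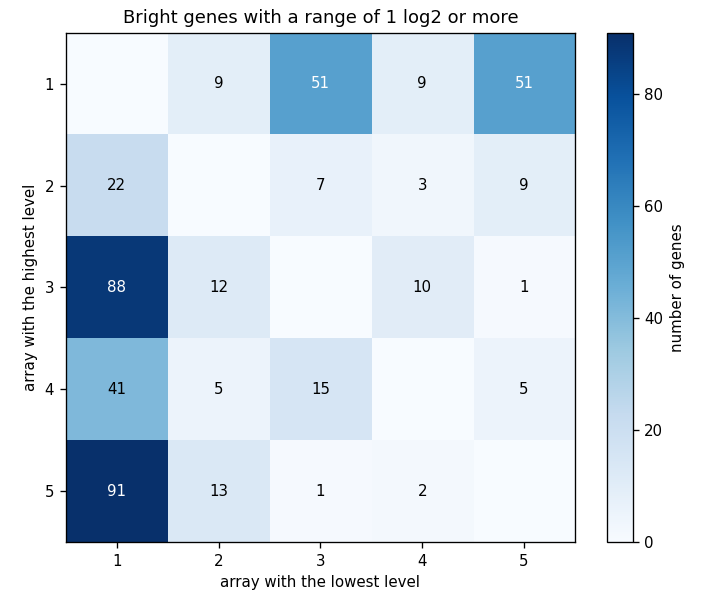
Number of bright genes with a range of 1 log2 unit or more (445 in all), by the array with their highest level (vertical axis) and the array with their lowest level (horizontal axis). The cells for arrays 5 and 3 high with array 1 low hold 91 and 88 genes, and those for array 1 high with arrays 3 and 5 low hold 51 each.

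The 24 general macrophage genes varied together. Their mean level was 10.44 in array 1, 10.80 in array 2, 11.10 in array 3, 10.70 in array 4 and 11.11 in array 5, or 10.83 ± 0.28 (SD, n = 5). Arrays 3 and 5 stood above the others and differed by 0.01, so their order is not settled, and array 3 led in the values as deposited. All 24 genes were above their own mean in both arrays 3 and 5, and none was in array 1. Of the 24, 23 were highest in array 3 or 5, against 38.1% of bright genes, and 20 were lowest in array 1, against 24.6%. The range of the list mean was 0.67, and 0.41 without array 1.

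The anchor of this group was Cd68, a glycoprotein of macrophage lysosomes, at 11.34, 11.82, 11.96, 11.72 and 12.12 in arrays 1 to 5. Adgre1, which encodes the surface protein F4/80, read 10.56, 11.02, 11.47, 10.97 and 11.52. Both were lowest in array 1 and highest in array 5, and array 3 came next. The widest members were Cd14, the co-receptor for bacterial lipopolysaccharide, with 8.39, 8.86, 9.34, 8.93 and 9.67, and Ms4a7, a membrane protein of mature macrophages, with 9.16, 10.05, 10.31, 9.60 and 10.43. Spi1, the transcription factor PU.1 that directs the myeloid lineage, read 7.84, 8.49, 8.92, 8.50 and 8.94. Clec7a, the beta-glucan receptor, differed in its lowest array: it read 10.19, 10.79, 11.18, 10.17 and 11.00, so that arrays 1 and 4 were equally low. The narrowest were Ctss (range 0.19) and Lgals3 (range 0.17), both near the top of the intensity scale. The integrin Itgax (CD11c), often used for macrophages recruited in obesity, read 9.72, 9.83, 10.42, 9.92 and 10.42, with arrays 3 and 5 alike.

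Most lipid-associated macrophage genes followed the same arrays. The mean of 15 genes was 11.33, 11.54, 11.88, 11.54 and 11.87 in arrays 1 to 5, or 11.63 ± 0.24 (SD, n = 5), a range of 0.55 that became 0.34 without array 1. In this list 13 members were highest in array 3 or 5, against 38.1% of bright genes, and 12 were lowest in array 1, against 24.6%. Trem2, the lipid-sensing receptor that defines these cells, read 9.53, 10.22, 11.00, 10.22 and 10.96. It was therefore highest in arrays 3 and 5 and lowest in array 1. Its other, dim probe set was also highest in arrays 5 and 3, but lowest in array 4 at 0.95, against 2.16 in array 1. Dcstamp, which takes part in the fusion of macrophages into giant cells, read 6.08, 6.54, 7.70, 6.77 and 7.42. Cd9 (a tetraspanin) read 10.36, 10.76, 11.52, 10.82 and 11.48, and Ctsk (cathepsin K) 10.16, 10.49, 11.23, 10.57 and 11.17. Mmp12, macrophage elastase, reached 12.51 and 12.30 in arrays 3 and 5 against 11.52 to 11.64 in the other 3, with no overlap. Acp5 went the other way, with 11.05, 11.08, 10.72, 11.03 and 10.75. In Apoe and Plin2 array 5 was highest but array 3 second lowest, at ranges of 0.22 and 0.16. The cathepsins Ctsb and Ctsd, which most cells express, had ranges of 0.05 and 0.13.

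The mean of tissue-resident macrophage genes did not share that order, although several members did. Their 16 bright members of 19 had means of 8.90, 9.26, 9.24, 9.53 and 9.59, with arrays 5 and 4 highest and array 3 below the 5-array mean of the list. Of these, 12 were highest in array 4 or 5, against 35.3% of bright genes, and 10 were lowest in array 1, against 24.6%. Mrc1, the mannose receptor CD206, read 10.36, 10.64, 10.99, 10.81 and 11.03. It was highest in arrays 5 and 3 and lowest in array 1, like the general macrophage genes, and so were Folr2, a folate receptor (8.62, 9.33, 9.71, 9.57 and 10.25), the lectin Clec10a, the chemokine Pf4 and the scavenger receptor Stab1. Others differed. Lyve1, the hyaluronan receptor of perivascular macrophages and lymphatic vessels, read 6.72, 6.32, 7.64, 8.39 and 8.20. Cd209f, a lectin, read 6.70, 8.55, 7.60, 8.09 and 8.14. Fcna, ficolin A, was low in array 1 alone, at 6.87 against 8.06 to 8.54. Mgl2, another macrophage lectin, went the other way, with 6.86 and 6.76 in arrays 1 and 2 and 5.81 in array 3. So did the far brighter Retnla, at rank 448, with 12.47, 11.88, 11.57, 12.12 and 11.81. The list mean had a range of 0.69, and of 0.35 without array 1.

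**Figure D2:**
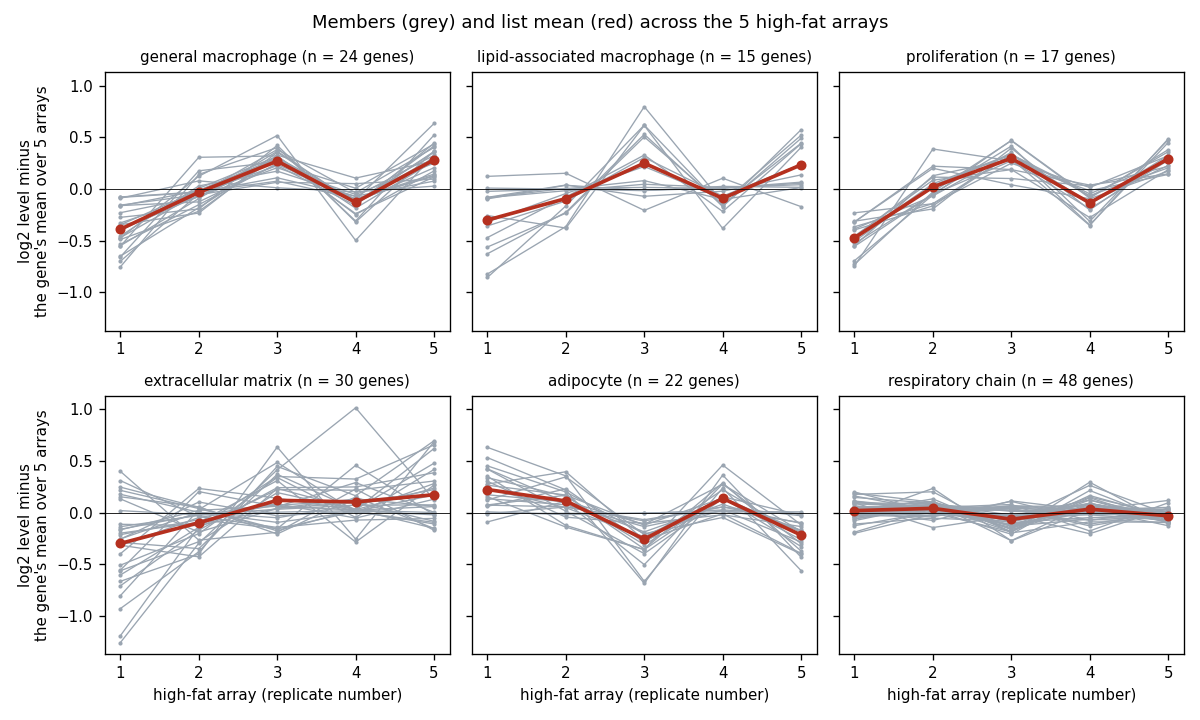
Log2 level of each bright list member minus its own mean over the 5 arrays (grey) and the mean of the list (red), in 6 lists, by array. Lines join the values of 1 gene and imply no order among the arrays. The macrophage and proliferation lists lie above 0 in arrays 3 and 5 and lowest in array 1, the adipocyte list lies below 0 in arrays 3 and 5, and the mean of the respiratory chain lies between -0.064 and 0.042.

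Bright cell division genes were lowest in array 1 without exception. All 17 bright members of a list of 24 were lowest there, against 24.6% of bright genes, and all 17 were above their own mean in arrays 3 and 5. With dim genes included, 22 of 23 named members were lowest in array 1, against 24.8% of all genes, and 1 was lowest in array 4. Their mean was 7.33, 7.83, 8.10, 7.67 and 8.10 in arrays 1 to 5, or 7.81 ± 0.32 (SD, n = 5), with a range of 0.77 that became 0.43 without array 1. Rrm2, a subunit of the enzyme that makes deoxyribonucleotides, read 7.70, 8.40, 8.89, 8.34 and 8.81. Ccna2, cyclin A2, read 7.13, 7.76, 8.29, 7.74 and 8.18. These were highest in array 3, with array 5 next. Cdk1, the kinase that drives entry into mitosis, read 6.88, 8.01, 7.90, 7.43 and 7.90 and so was highest in array 2. Birc5 (survivin) read 6.77, 7.45, 7.61, 6.97 and 7.80, and Bub1, a spindle checkpoint kinase, 5.94, 6.41, 6.88, 6.15 and 6.94. The smallest ranges were those of Mcm2, a subunit of the replicative helicase, at 0.48, and Prc1, which bundles spindle microtubules, at 0.52.

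Since these genes shared their lowest array, their promoters were read from the RefSeq promoter table (build GRCm38.p6), which held 16 of the 17. Many mitotic genes carry 2 short elements near the start of transcription: the CHR, TTTGAA, and the CCAAT box, each searched on both strands. TTTGAA was found in 8 of the 16 promoters and in 18.1% of 27025 promoters, 1 for each gene of the table. CCAAT was found in 14 of the 16 and in 37.9% of the 27025. Windows of 300 bases around the start are shown for 3 members that hold both letters, Cdc20 (which activates the anaphase complex), Ccnb2 (cyclin B2) and Cdk1, in lower case with every match to either element, on either strand, in capitals. No base of these windows lay in both motifs. Cdc20 is at chr4:118437294-118437593, Ccnb2 at chr9:70421505-70421804 and Cdk1 at chr10:69352863-69353162, all on the minus strand and written 5′ to 3′.
Cdc20: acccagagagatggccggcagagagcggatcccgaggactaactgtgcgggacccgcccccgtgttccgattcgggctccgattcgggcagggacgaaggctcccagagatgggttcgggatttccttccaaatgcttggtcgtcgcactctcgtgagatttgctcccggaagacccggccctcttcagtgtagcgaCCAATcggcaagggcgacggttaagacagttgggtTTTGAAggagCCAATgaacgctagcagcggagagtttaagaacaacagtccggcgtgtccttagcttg
Ccnb2: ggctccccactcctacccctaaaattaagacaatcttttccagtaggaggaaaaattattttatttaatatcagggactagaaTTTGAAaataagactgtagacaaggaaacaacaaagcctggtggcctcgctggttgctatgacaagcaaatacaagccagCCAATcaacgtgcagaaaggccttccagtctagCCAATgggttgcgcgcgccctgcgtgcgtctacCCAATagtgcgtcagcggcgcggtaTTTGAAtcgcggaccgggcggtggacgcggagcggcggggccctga
Cdk1: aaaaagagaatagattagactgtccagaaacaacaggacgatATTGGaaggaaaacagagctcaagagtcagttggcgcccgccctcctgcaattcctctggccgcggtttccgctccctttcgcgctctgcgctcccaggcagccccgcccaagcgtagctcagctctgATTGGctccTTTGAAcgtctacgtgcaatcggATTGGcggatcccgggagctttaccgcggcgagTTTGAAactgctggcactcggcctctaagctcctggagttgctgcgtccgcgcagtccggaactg
The Cdc20 window holds 1 CHR and 2 CCAAT boxes, and the windows of Ccnb2 and Cdk1 each hold 2 of the first and 3 of the other. A match of letters is a description of the sequence and was not set against the levels. Cdc20 itself read 7.44, 7.98, 7.95, 7.48 and 7.95, and Ccnb2 ran from 6.50 in array 1 to 7.37 in array 5, so both were lowest in array 1, Cdc20 with array 4 close to it. For the macrophage list the PU.1 motif GAGGAAGT was found in 2 of 17 promoters (Ctss and C1qc), and in 3.28% of the 27025 promoters.

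Several mast cell granule genes were low in arrays 1 and 2 and high in arrays 3 and 5, while others had another order. Of 18 listed genes 17 were named but only Cpa3, Gata2 and Kit were bright, so the granule genes are given as deposited intensities. Cpa3 read 32.5 and 36.0 in arrays 1 and 2 and 237, 89.1 and 259 in arrays 3, 4 and 5. Cma1 (chymase) read 19.3, 49.1, 122, 70.1 and 116, and Mcpt4, a chymase of connective tissue mast cells, 1.04, 15.6, 69.9, 41.8 and 87.1. In each of these 3 genes arrays 1 and 2 lay below all of arrays 3, 4 and 5, and arrays 3 and 5 were the highest.

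The tryptase Tpsb2 read 1.23, 13.4, 30.0, 12.9 and 21.0, and Fcer1a, the binding chain of the IgE receptor, 0.807, 7.53, 27.5, 13.3 and 23.4. They too were highest in arrays 3 and 5 and lowest in array 1, while array 2 overlapped array 4 for Tpsb2. Another probe set of Tpsb2, dimmer still, differed: its log2 levels were 3.15, 1.24, 2.99, 2.27 and 2.94, highest in array 1 and lowest in array 2. The tryptase Tpsab1 read 17.8, 8.02, 20.8, 18.2 and 14.2, and Hdc, which makes histamine, read 11.2, 5.68, 10.8, 9.16 and 18.8. In both, array 2 and not array 1 was the lowest in these probe sets. Another, dimmer probe set of Hdc had log2 levels of 1.07, 1.27, 1.75, 1.51 and 1.66, lowest in array 1 and highest in array 3. The chymase Mcpt1 read at most 3.09 in any array. Kit, the stem cell factor receptor that mast cells share with other cells, did not follow: its intensity was 125, 102, 143, 97.7 and 132, a log2 range of only 0.32. Gata2, a transcription factor that endothelial cells also express, was highest in array 1 at a log2 level of 7.33 against 6.73 to 7.08. Among the 17 named genes 13 were highest in array 3 or 5, where 38% of all 18193 genes were, and 14 were lowest in array 1 or 2, where 42% were. Most of these genes are dim, and detection calls were not used here, so a low intensity does not say that a gene was silent. Cpa3 itself had a range of 2.99, at log2 levels of 4.99, 5.22, 7.61, 6.75 and 7.98. The mean of Cpa3, Gata2 and Kit had a range of 1.03, which became 0.85 over arrays 1 to 4, and the mean of all 17 on the log2(intensity + 16) scale, which weighs dim values less, was 4.80, 4.87, 5.38, 5.23 and 5.40.

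GATA factors bind the letters AGATAA in mast cell genes. The Cpa3 window held 1 such match, the windows of Gata2 and Kit held none, and 11.4% of the 27025 promoters held one on either strand. The 300 bases around the Cpa3 start, at chr3:20242132-20242431 on the minus strand, are shown with the match in capitals, since Cpa3 had the widest range of the 3 bright mast cell genes.
Cpa3: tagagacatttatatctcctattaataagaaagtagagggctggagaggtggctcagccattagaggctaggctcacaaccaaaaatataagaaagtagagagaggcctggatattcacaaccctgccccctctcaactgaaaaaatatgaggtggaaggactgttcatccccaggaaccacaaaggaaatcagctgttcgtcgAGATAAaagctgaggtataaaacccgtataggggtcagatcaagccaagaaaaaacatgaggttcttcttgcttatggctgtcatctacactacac

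**Figure D3:**
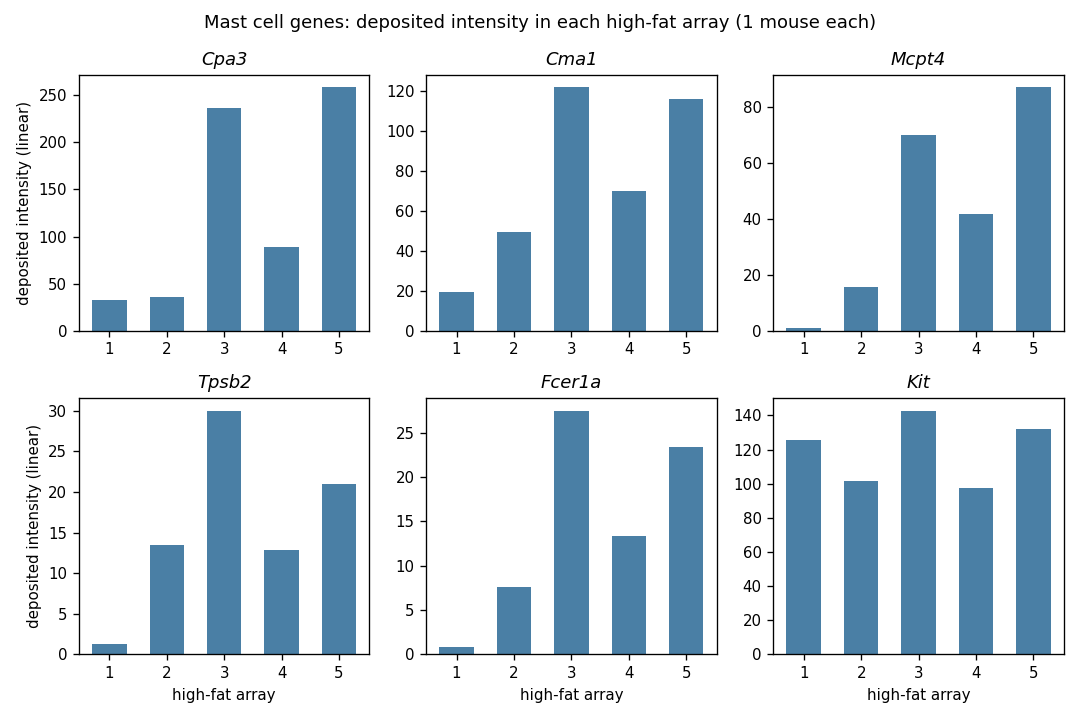
Deposited intensity (linear axis from 0, its own scale in each panel) of 6 mast cell genes in each of the 5 high-fat arrays, 1 bar per mouse. Cpa3, Cma1, Mcpt4, Tpsb2 and Fcer1a are highest in arrays 3 and 5 and lowest in array 1 in the probe sets drawn. Another probe set of Tpsb2 was highest in array 1. The probe set of Kit drawn lies between 97.7 and 143 in all 5, and a dimmer one of Kit was also highest in array 1.

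Most matrix genes were lowest in array 1. The mean of 30 genes was 10.11, 10.31, 10.53, 10.51 and 10.58 in arrays 1 to 5, or 10.41 ± 0.20 (SD, n = 5), a range of 0.47 that became 0.27 without array 1. Of the 30, 18 were lowest in array 1, against 24.6% of bright genes, and 13 were highest in array 5, against 16.6%. Another 8 were highest in array 1, a share near the 25.9% of bright genes that were. The widest was Fmod (fibromodulin, a proteoglycan of collagen fibrils), which read 6.80, 7.76, 8.47, 9.07 and 8.18. Mmp2, a gelatinase, read 8.18, 9.23, 9.72, 9.70 and 10.03, Lum (lumican, a further proteoglycan) 10.10, 10.65, 11.47, 11.19 and 11.72, and Timp1, an inhibitor of such proteases, read 8.05, 8.32, 9.35, 8.46 and 9.40. Fmod and Mmp2 were low in array 1 and shared a second-lowest array 2, whereas Timp1 was high in arrays 3 and 5 only.

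The fibrillar collagens Col1a2 (12.28, 12.54, 12.49, 12.61 and 12.76) and Col3a1 (from 12.90 to 13.16) were lowest in array 1 and highest in array 5. Col1a1 read 9.45, 9.39, 10.11, 9.77 and 9.98, lowest in array 2, but its other probe set read 8.42, 9.21, 9.45, 9.55 and 9.44 and was lowest in array 1, so the order of arrays for Col1a1 depends on the probe set. The network collagen of basement membranes, Col4a1, went the opposite way, with 12.66, 12.46, 12.24, 12.44 and 12.26, as did the microfibril collagen Col6a1, with 12.06, 11.88, 11.68, 11.85 and 11.73. These 2 were highest in array 1 and lowest in array 3, and so were Col4a2, Col5a1 and Col6a2, the last with array 5 equally low. As deposited, Col4a1 and Col6a1 were again highest in array 1 but lowest in array 4. Sparc (range 0.04) and Fap, a protease of activated fibroblasts (range 0.23), were the narrowest.

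Genes of stromal progenitors, the fibroblast-like cells from which adipocytes arise, had the same order of arrays as the matrix list: their 15 genes averaged 9.30, 9.62, 9.78, 9.76 and 9.91. Of these, 10 were lowest in array 1, against 24.6% of bright genes, and 8 highest in array 5, against 16.6%, and the range of 0.61 became 0.29 without array 1. Pi16, a marker of the most immature of these cells, read 6.82, 8.34, 8.20, 8.43 and 8.79, with array 1 apart from the rest. Mfap5, a microfibril protein, read 9.19, 9.95, 10.59, 9.92 and 10.77, and Pdgfra, the platelet-derived growth factor receptor of fibroblasts, 8.59, 9.01, 9.45, 9.39 and 9.80. Igfbp5, an insulin-like growth factor binding protein, was highest in array 1 at 10.66 and lowest in array 3 at 9.45. Pdgfrb, Efemp1 and Anxa3 were lowest in array 2, and Gsn had a range of only 0.01.

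The adipocyte genes were arranged the other way round. The mean of 22 genes was 11.95, 11.84, 11.47, 11.86 and 11.51 in arrays 1 to 5, or 11.72 ± 0.22 (SD, n = 5), with a range of 0.48. Arrays 1, 2 and 4 stood above arrays 3 and 5. Of the 22, 20 were lowest in array 3 or 5, against 41.1% of bright genes, 13 were highest in array 1, against 25.9%, and none was above its own mean in array 3. In the values as deposited, in which array 3 was the brightest array, the list was lowest in array 5 only, and with arrays centred on their medians it was highest in array 4.

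Retn, the hormone resistin, was the widest, with 12.60, 12.32, 11.30, 12.20 and 11.40. Slc2a4, the insulin-regulated glucose transporter GLUT4, read 9.16, 8.84, 7.94, 8.99 and 8.19. In both genes arrays 3 and 5 lay below the other 3 by more than those 3 differed. Dgat1, which completes triglyceride synthesis, read 11.06, 10.74, 10.13, 10.91 and 10.34. Pparg, the nuclear receptor that drives adipocyte differentiation, read 10.34, 10.09, 9.68, 9.84 and 9.49. Adipoq read 13.23, 13.22, 13.08, 13.22 and 13.06 and Lep, the leptin gene, 12.79, 12.73, 12.52, 12.68 and 12.56, so both had the same side of each array at a smaller size (ranges 0.18 and 0.27). As deposited, array 3 came second to array 1 for both, and array 5 was the lowest for Adipoq and array 4 for Lep. Fabp4 and Car3 had the smallest ranges, 0.03 each, at ranks 3 and 4 of all probe sets. Whether the top of the intensity scale bears on these small ranges was not tested.

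Other adipocyte functions had the same arrays low. In a list of 15 genes of branched-chain amino acid breakdown all 15 were bright, all were above their own mean in array 1, and 7 were lowest in array 3 and 8 in array 5, against 21.3% and 19.8% of bright genes; the means were 9.50, 9.40, 9.02, 9.38 and 9.03. Ivd, isovaleryl-CoA dehydrogenase, read 9.15, 9.04, 8.24, 9.04 and 8.34. Bcat2, which takes the first step of this breakdown, read 6.70, 6.54, 5.78, 6.35 and 6.24. All 5 bright genes tied to fat mass expansion were lowest in array 5, against 19.8% of bright genes, with Mest at 12.35, 12.24, 11.80, 12.05 and 11.73. Among the 7 named genes of that list 5 were lowest in array 5, where 19.3% of all genes were. With its 2 dim genes kept, the list mean in array 1 minus that in array 5 turned to -0.033. The mean of 16 lipogenesis genes was 10.60, 10.37, 10.25, 10.53 and 10.28, and of these genes the lipid hydrolase Pnpla3 (8.26, 7.46, 7.11, 7.69 and 7.13) and Mlxipl, the carbohydrate-sensing factor ChREBP (7.94, 7.43, 6.85, 7.34 and 7.12), ranged most. Scd1, the stearoyl-CoA desaturase, had a range of 0.11.

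Endothelial genes shared the adipocyte side. All 17 were bright and above their own mean in array 1, and none was above it in array 3 or 5. Of the 17, 15 were lowest in array 3 or 5, against 41.1% of bright genes. Their means were 9.03, 9.02, 8.56, 8.82 and 8.50. Kdr, the main receptor for vascular endothelial growth factor, read 8.88, 8.78, 8.03, 8.67 and 7.80, and Pecam1 (CD31) 8.94, 8.97, 8.19, 8.94 and 8.15. Nos3, the endothelial nitric oxide synthase, read 9.15, 8.70, 8.11, 8.81 and 8.10. Of 10 bright smooth muscle and pericyte genes 7 were highest in array 1, against 25.9% of bright genes, with Rgs5, a pericyte regulator of G protein signalling, at 12.13, 11.67, 11.29, 11.54 and 11.38. The endothelial and pericyte lists were thus low in arrays 3 and 5, where the macrophage list was high. Quantile normalization gives all arrays the same distribution of values, so a level is relative to the other genes of its array.

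Mitochondrial genes differed little, and the respiratory chain had the smallest range of all lists with 3 or more bright members. The mean of 48 bright respiratory chain genes was 11.30, 11.33, 11.22, 11.32 and 11.25 in arrays 1 to 5, or 11.28 ± 0.05 (SD, n = 5), a range of 0.11. None of the 48 had a range of 1 or more, where 4.89% of bright genes did, and the median range of the members was 0.19, where that of bright genes was 0.40. These are bright genes, 12 of the 48 in the top 1% of probe sets and 43 in the top 5%, and brighter genes ranged less: the median range was 0.21 over all genes in the top 1% and 0.32 over those in the top 1 to 5%, and 1.31% and 2.42% of them had a range of 1 or more. In the main values 25 of the 48 were lowest in array 3, against 21.3% of bright genes, but in the values as deposited array 3 was the highest and array 4 the lowest, with a range of 0.37. The widest bright members were Cyc1 (cytochrome c1), with 10.51, 10.78, 10.28, 10.57 and 10.60, and Ndufa10, a complex I subunit, with 10.88, 10.87, 10.69, 11.17 and 10.76. Ndufs7 and Ndufs3, complex I subunits of the electron path, had ranges of 0.42 and 0.42, and Ndufb2 and Cox5a ranges of 0.08 and 0.07.

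Among 16 citric acid cycle genes 11 were lowest in array 3, against 21.3% of bright genes, and 9 were highest in array 4, against 18.7%, and the list mean was 10.69, 10.74, 10.53, 10.79 and 10.59; in the values as deposited array 3 was the highest instead. Cs, citrate synthase, read 11.40, 11.36, 10.97, 11.47 and 11.16, with array 3 the lowest in all 3 of its probe sets, though as deposited its brightest probe set was lowest in array 5. Dlat, a subunit of pyruvate dehydrogenase, read 10.16, 10.37, 10.04, 10.75 and 10.21. The 16 fatty acid oxidation genes averaged 10.74, 10.87, 10.61, 10.85 and 10.62, with 14 highest in array 2 or 4, against 35.9%, and array 3 again highest in the values as deposited. Cpt2, which imports fatty acids into mitochondria, read 9.88, 9.96, 9.57, 10.02 and 9.33, whereas Cpt1a, which precedes it, was lowest in array 4 at 9.87 and highest in array 3 at 10.54.

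**Figure D4:**
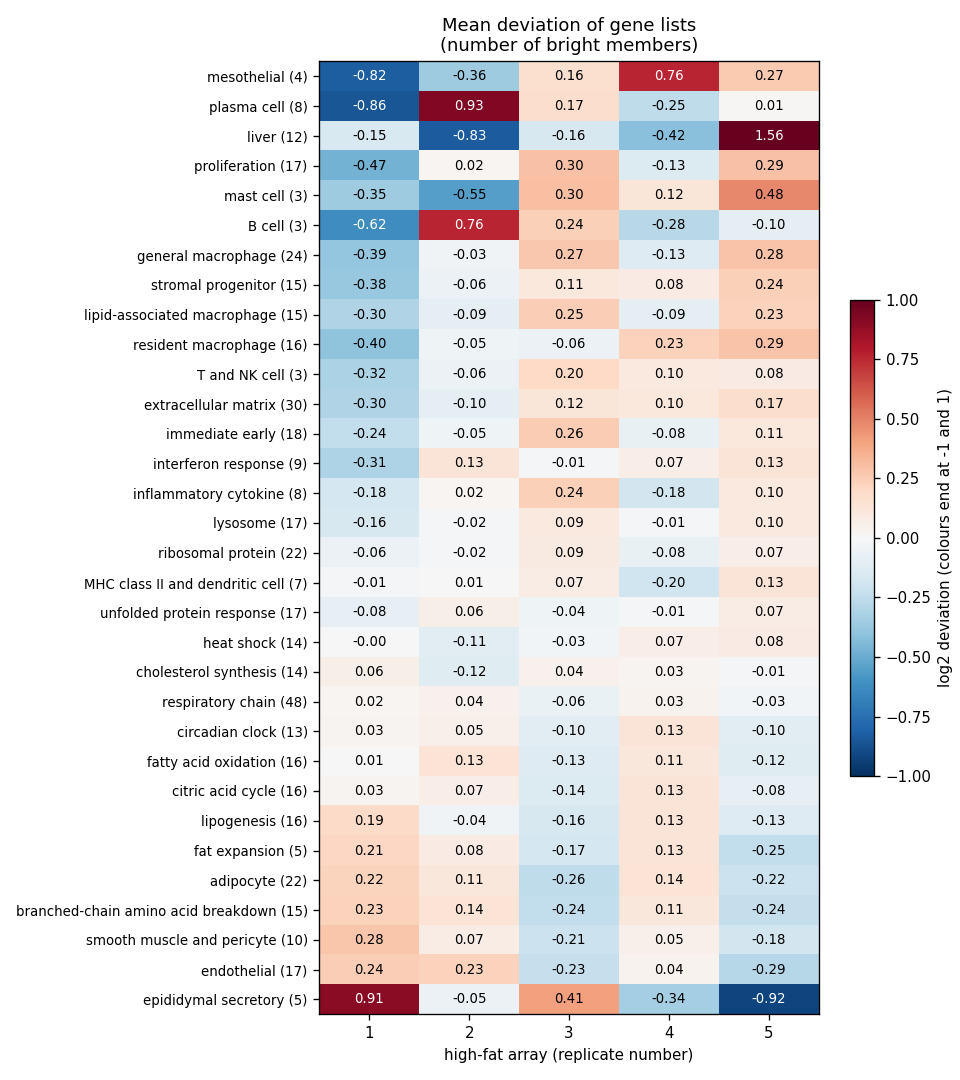
Mean log2 deviation of each gene list with 3 or more bright members from its own 5-array mean, by array, ordered by the mean of arrays 3 and 5 minus array 1. Lists of macrophages, stroma and division are below 0 in array 1, lists of adipocytes and vessels are above 0 there, and the lists of liver, plasma cells, mesothelium and epididymis each peak in a single array.

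In several smaller programs 1 array held the highest or lowest level of most members. Some had the orders of larger lists. The lysosomal mean had the order of the matrix mean, and the immediate early mean that of the division mean. Of 18 immediate early genes, the fast response genes that stimuli of many kinds switch on, 14 were highest in array 3, against 21.5%: Fos read 10.23, 10.58, 11.13, 10.66 and 10.99 and Egr2 8.28, 8.49, 9.28, 8.53 and 9.02. Only 7 of these genes had a second bright probe set. The same array was highest in both probe sets for 2 of the 7, against 41.5% of all genes with a second one. Of 17 lysosomal genes 12 were lowest in array 1, against 24.6%, among them Atp6v1a, a proton pump subunit, at 10.67, 10.95, 11.43, 10.84 and 11.45. The monocyte attractant Ccl2 read 8.64, 8.83, 9.61, 8.47 and 9.18. Of 7 bright genes of class II antigen presentation or of dendritic cells 6 were lowest in array 4, against 18.7%, with H2-Aa, a class II chain, at 12.50, 12.65, 12.62, 12.26 and 12.71. Of 9 interferon response genes 6 were lowest in array 1, against 24.6%, and 5 highest in array 2, against 17.3%, with Rsad2 (viperin) at 8.55, 9.46, 8.86, 9.17 and 9.28. Ribosomal protein genes had small differences in 1 direction: 14 of 22 were highest in array 3, against 21.5%, at a range of the list mean of 0.17. None of the genes with a named probe set in 3 further marker lists was bright: 3 of the 6 blood genes, 5 of the 7 eosinophil genes and 6 of the 8 lymph node stroma genes had one.

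Transcripts that belong to other tissues or rare cells gave the widest ranges, and each marked a different mouse. The lists for liver, plasma cells and epididymal secretory genes were drawn up after these values had been seen, so their counts are descriptions that support nothing. Alb (albumin) read 8.94, 7.83, 8.86, 8.42 and 10.97, and Ttr (transthyretin, a carrier made by liver) 8.18, 7.08, 8.62, 7.87 and 10.93. In both genes array 5 stood above every other array. All 4 probe sets of Ttr were highest in array 5 and lowest in array 2. Serpina1c, a member of a family of near-identical antitrypsin genes, and Fabp1, the liver fatty acid carrier, read 10.38 and 9.66 in array 5 and 6.39 and 6.03 in array 2. Of 30 named liver genes 28 were highest in array 5, where 18.8% of all genes were, and the mean of the 12 bright ones was 9.39 in array 5 and at most 7.69 in the others, with array 2 the lowest. The exception among the bright ones was Cyp2e1, which fat also expresses and which was highest in array 2. The mean of the bright liver genes was 7.68 in array 3. That array came second for Ttr and Fabp1, whereas array 1 came second for Alb and Serpina1c.

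Of 15 named plasma cell genes 7 were highest in array 2, where 19.1% of all genes were; of the 8 bright ones 3 were highest in array 2, against 17.3% of bright genes, and 3 in array 5. The 3 in array 2 were antibody genes and had the widest ranges. The kappa light chain gene Igkv8-30 had the largest range of any bright gene, 5.68, with 4.08, 9.76, 7.81, 6.51 and 6.90; its probe set is of the kind that can match related immunoglobulin genes. Jchain, which joins IgA and IgM into polymers, read 4.89, 9.04, 7.85, 6.15 and 7.11, and Igha, the IgA heavy chain, 5.10, 8.83, 6.28, 6.02 and 6.15. The 3 genes had the same order, array 2 first and array 1 last. Ighm, the IgM heavy chain, did not share it and was highest in array 1 at 12.38. Xbp1 and Sdc1, which plasma cells share with many cells, had ranges of 0.18 and 0.51.

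Mesothelial genes, which mark the sheet of cells that covers the pad, marked array 4. Upk3b (uroplakin 3b) read 6.22, 7.18, 7.73, 8.65 and 7.62, and Gpm6a, a membrane glycoprotein, 6.14, 7.27, 7.95, 8.23 and 7.68. Both probe sets of Upk3b were highest in array 4 and lowest in array 1. Of 12 named members 11 were highest in array 4, where 20.5% of all genes were, and 9 were lowest in array 1, where 24.8% were, although only 4 were bright. Epididymal secretory genes marked array 1: all 5 bright members were highest there and lowest in array 5. Among 20 named members 16 were highest in array 1 and 17 lowest in array 5, where 22.4% and 19.3% of all genes were. In an earlier list of epididymis and testis genes only Lcn8 was bright. Its 15 named members had a weaker pattern: 9 were highest in array 1 and 4 in array 2, and 9 were lowest in array 5. Gpx5, the secreted glutathione peroxidase of the epididymis, read 9.02, 7.94, 8.66, 7.64 and 7.38, and Lcn8, an epididymal lipocalin, 7.64, 6.47, 7.33, 5.83 and 5.46. Array 3 came second for Gpx5 and Lcn8. The part of these transcripts in the macrophage, matrix and adipocyte patterns was not tested.

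**Figure D5:**
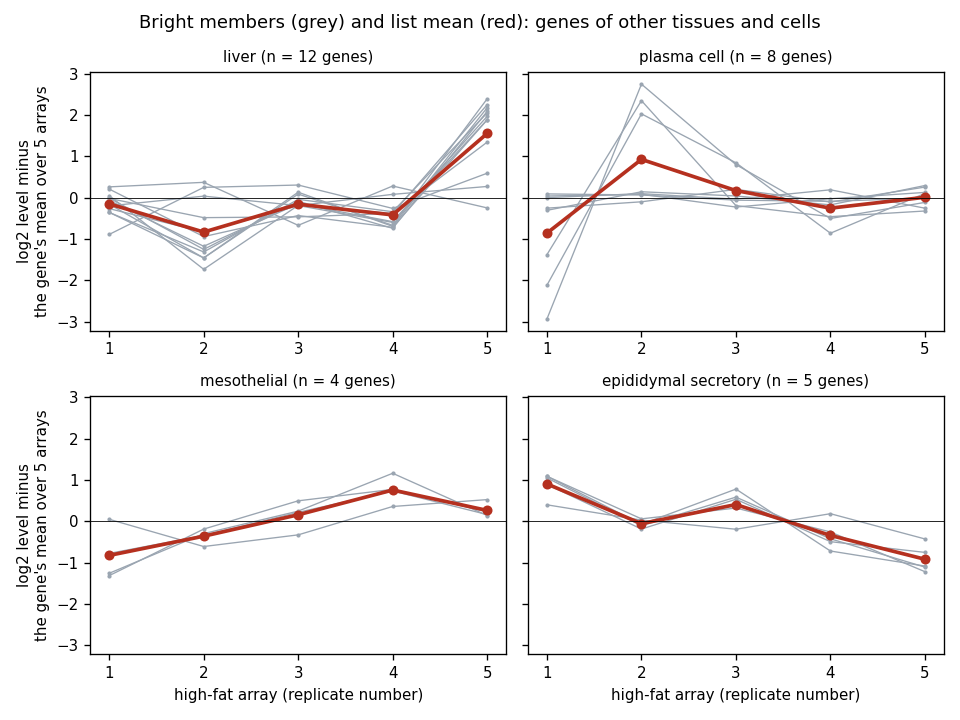
Log2 level of each bright member minus its own 5-array mean (grey) and the list mean (red) for 4 lists. Lines join the values of 1 gene and imply no order among the arrays. Liver genes peak in array 5, 3 antibody genes in array 2, mesothelial genes in array 4 and epididymal secretory genes in array 1.

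For the anchor genes, the bright genes with exactly the same order of the 5 arrays were counted. The order of Cd68 (arrays 5, 3, 2, 4, 1 from high to low) was shared by 211 genes (2.32%), 24 of them with a range of 1 or more, of which the widest were the B cell and macrophage lectin Cd72 (range 1.66), Mfap5 (1.58), Shcbp1 (1.49), Arg1 (arginase 1, 1.48) and Plau (urokinase, 1.48). The order of Cpa3 (5, 3, 4, 2, 1) was shared by 278 genes, 45 of them wide: the widest were Hmga2 (2.27), a chromatin protein of progenitor cells, Mgp (1.91), which keeps matrix from calcifying, Mmp2 (1.85), the stromal endosialin Cd248 (1.83) and Fbln7 (1.79). These 5 are not mast cell genes, and the list means of the matrix and stromal progenitor genes had this same order.

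The order of Adipoq (1, 2, 4, 3, 5) was shared by 251 genes, 26 of them wide, led by Aldh3b2 (1.52), an aldehyde dehydrogenase, Tlcd3b (1.39), Cachd1 (1.36), Steap4 (1.34), a metalloreductase of adipocytes, and Gpld1 (1.29). The order of Col1a1's brightest probe set (3, 5, 4, 1, 2) was shared by 137 genes, 9 of them wide: Col8a1, Fgd6, Clec4d, Ect2 and Rgs1 led, with ranges of 1.30, 1.24, 1.21, 1.14 and 1.13. The order of Cs (4, 1, 2, 5, 3) was shared by 173 genes but only 3 were wide, Shroom3 (1.12), Adgrg1 (1.08) and Ipo13 (1.01).

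How far a single gene's order can be read was gauged from 3179 genes with a second bright probe set. The same array was highest in both probe sets for 41.5% of them and lowest in both for 40.6%. For 94 genes with a range of 1 or more these shares were 70.2% and 71.3%, and for genes with a range under 0.5 they were 37.3% and 36.5%. Both probe sets thus named the same array more often for wide genes than for narrow ones.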

How the data were processed

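Per the labels' protocols, total RNA of each mouse was made into biotin-labelled cRNA from frozen fat. The authors deposited 1 linear intensity per probe set and array; no source used here names the summary algorithm or the scaling. The 10 arrays of the series fall into 5 high-fat and 5 chow arrays by their titles, and the chow arrays were not used, except to set quantiles in 1 alternative. Intensities of the 5 high-fat arrays were raised to a floor at their 5th percentile (0.638), log2 transformed and quantile normalized. Gene values leave out 64 control probe sets. Of the probe sets 34958 had 1 symbol in the platform annotation, 932 had several and 9211 were not listed and stay unnamed here; 34754 were matched by Entrez ID to RefSeq. Promoters came from RefSeq, build GRCm38.p6. Each array is 1 mouse, and precision is limited by there being 5 of them. Only bright members enter list means and counts unless stated.

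The members and lists were chosen with earlier results of these data known, and 3 of the 40 lists (liver, plasma cell, epididymal secretory) were drawn up after these values were seen. Named genes are the 10 brightest, the 10 widest, the 4 widest and 2 narrowest of each main list, the 4 widest of other lists in which 1 array holds the extreme of most members, anchors with the 5 widest genes of like order, and defining markers; other members were named after their values were seen. No test between groups or of a list against other genes was run. The only test was an outlier screen over the 5 arrays, given below with its limit. Counting of highest and lowest arrays was tested on simulated data. Python 3.11.15, numpy 2.4.6, pandas 2.3.3 and matplotlib 3.10.9 were used.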

Additional observations from a re-analysis of the deposited data

Results flagged for a closer look

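Among 180 sets of 5 values (named genes, list means and array controls) 10 had an array that stood apart by the Dixon outlier ratio. That ratio is the gap to the nearest other array divided by the range, and its limit was 0.71. Chance flags about 1 in 20 groups that were not picked by their values. Many of these genes and the liver list were picked from these same values, so that rate does not apply to them. The mean of the bright liver genes was 9.39 in array 5, with the next highest array at 7.69. Sptlc3 was 4.34 in array 1 and at least 6.97 elsewhere, and Fcna was 6.87 in array 1 and at least 8.06 elsewhere. Fap was 8.19 in array 1, against 8.37 in the next lowest array. Dbt, a subunit of the branched-chain ketoacid dehydrogenase, was 8.80 in array 1, against 8.34 in the next highest array. The other 5 are among the brightest probe sets and lay apart by small amounts, since the normalization gives arrays the same few values at the top of the scale: Fabp4 at 13.65 in array 4 (13.61 elsewhere), Gsn at 13.61 in array 4 (13.62 elsewhere), Lgals1 at 13.62 in array 4, Rps29 at 13.43 in array 5 (13.46 elsewhere) and Tmsb4x at 13.51 in array 5 (13.43 elsewhere).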

How the results depend on the processing

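No paired analysis was possible because the results come from 1 group, with no test between groups. As deposited, the medians of the bright genes differed by 0.55 between arrays 3 and 4. With those values the mean of the respiratory chain in array 2 minus array 3 turned to -0.18 (range of the list mean 0.37), citric acid cycle array 4 minus array 3 to -0.24, fatty acid oxidation array 2 minus array 3 to -0.040 and circadian clock genes array 4 minus array 3 to -0.31 (-0.028 with the mean of all probe sets). Fat expansion array 1 minus array 5 turned to -0.033 with dim genes kept, and B cell genes array 2 minus array 1 to -0.11 above the 75th percentile of levels, where 1 gene was left. The causes were not tested. The number of wide genes was 1003 as deposited, 1013 with the mean of all probe sets, 6699 of all 18193 genes, 142 above the 75th percentile of levels, and 154 to 398 with 1 array left out (154 without array 1). The first component held 43.2% with the mean of all probe sets, 28.3% with dim genes kept, 64.9% above the 75th percentile and 53.6% to 67.1% with 1 array left out. The range of the mast cell list was 2.99 where only Cpa3 was left after dropping probe sets open to cross-matches, 1.66 with dim genes kept, and 0.41 to 1.07 with 1 array left out; since the bright members are chosen anew each time, Cpa3 dropped out without array 5 (0.41, from 2 genes) and 1 more gene entered without array 1 (1.07); no mast cell gene lay above the 75th percentile. With 1 array left out, the matrix range was 0.27 to 0.47, that of general macrophages 0.41 to 0.68 and that of lipid-associated macrophages 0.34 to 0.55, each lowest without array 1. Over all lists, the difference between the original highest and lowest arrays kept its sign and moved by less than the spread between arrays in 380 of 414 recomputed values, moved further in 27 and turned in the 7 given. Keeping dim genes on the log2(intensity + 16) scale and the 3 added lists were chosen after seeing the data.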
